A study of Mus musculus with 9 samples.

Results

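Duodenal organoids that received a GFP-encoding adenovirus (Ad-GFP) are the control arm of a study of hypoxia-inducible factors in the intestine, and their baseline transcriptome is described here. The members were the 3 RNA-seq libraries labelled Ad-GFP, replicates 1, 3 and 4, of the 9 libraries of the series, and they were chosen by their labels alone. Crypts came from the duodenum of wild-type C57BL/6J mice and were grown in Matrigel in a conditioned medium that supplies Wnt3a, R-spondin and noggin. The organoids were broken into single cells, transduced with Ad-GFP at 50 particles per cell, kept at 5% oxygen with inhibitors of ROCK and of the TGF-β receptor and with nicotinamide, and harvested 72 hours later. No untransduced or freshly isolated tissue stands beside them here, so the levels below belong to transduced, single-cell-derived cultures in this medium. The replicates are described as biological, but the labels do not say whether each library came from a separate animal, so the SDs below measure the spread between these 3 libraries.

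The duodenal epithelium is renewed from crypts, where Wnt signalling keeps Lgr5-positive stem cells dividing, and their daughters become absorptive enterocytes or secretory goblet, Paneth, enteroendocrine and tuft cells. After injury, and in fetal gut, the epithelium takes on another programme in which YAP target genes, annexins, clusterin and related genes are high and the crypt stem cell genes are low. Organoid media rich in Wnt ligand are known to favour undifferentiated cells over mature enterocytes. In bulk libraries of this kind, fewer cells of a type and less RNA per cell cannot be told apart.

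The organoids expressed simple-epithelial keratins and regenerative genes at very high levels, while defining genes of crypt stem cells (Lgr5, Olfm4), Paneth cells (Lyz1), enteroendocrine cells (Chga) and enterocytes (Sis, Alpi) were at or near 0. The crypt stem cell list as a whole was not near 0. Of its 20 genes 12 (60%) reached 1 coding TPM in every library, not far from the 51.1% of all protein-coding genes. Coding TPM is a level rescaled to protein-coding genes, as set out below. Of 23 fetal-like and regenerative genes, listed with earlier results of these data known, 21 reached 1 coding TPM, with a median of 187. None of 18 Paneth genes did, and Lyz1 and Olfm4 had 0 counts in all 3 libraries. The transcription factors Pdx1, Gata4 and Cdx2 also reached 1 coding TPM in every library, while Cdx1 and Isx had 0 counts in each. Of 12 genes of the proximal small intestine 6 (50%) reached 1 coding TPM in every library, a share close to that of all protein-coding genes. The stomach gene Ctse and Muc1, from the colon list, stood higher than any of these 12. No Hox gene reached 1 coding TPM in every library. Of the 8 markers set for these organoids, Krt8, Spp1, Muc2, Cdx2 and Epcam reached 1 coding TPM in every library, and Lgr5, Lyz1 and Chga, of stem, Paneth and enteroendocrine cells, did not.

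The libraries held 39763093, 38500068 and 21722618 expected counts in replicates 1, 3 and 4, so that replicate 4 was the shallowest. Nuclear protein-coding genes made up only 4.0%, 4.39% and 4.19% of the deposited TPM (transcripts per 1000000). Small nuclear RNAs took 63.6%, 63.2% and 68.2% of TPM, and 7SL RNA, the scaffold of the signal recognition particle, took 17%, 15.7% and 13.1%. By expected counts, which do not divide by length, the same small nuclear RNAs took 15.7%, 15.9% and 18.9% and protein-coding genes other than those for cytosolic ribosomal proteins, mitochondrial genes and satellite-like predicted genes took 34.7%, 35.3% and 34.4%. The 95% Wilson intervals of these count shares were no wider than 0.02 percentage points either way, and they cover counting error only.

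**Figure D1:**
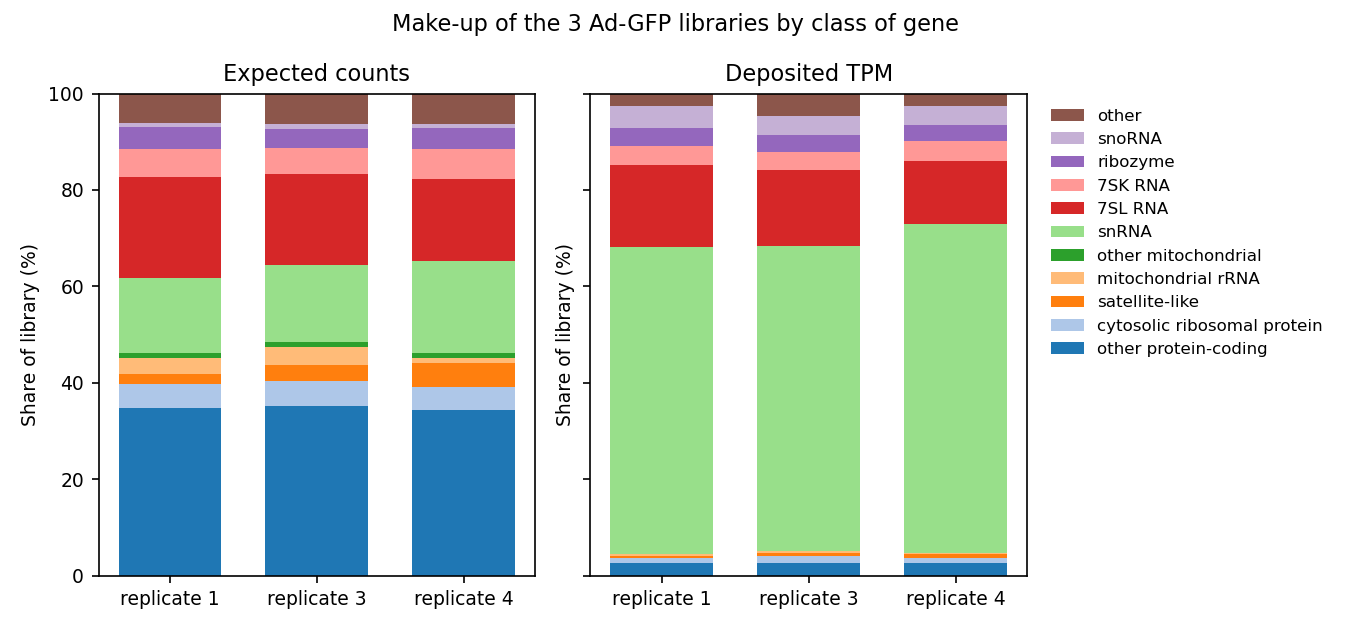
Share of each Ad-GFP library (vertical axis, %) taken by each class of gene, by expected counts on the left and by deposited TPM on the right, 1 bar a library. Small nuclear RNAs filled 63.2% to 68.2% of TPM but 15.7% to 18.9% of counts, which is why protein-coding genes had to be read on a scale of their own.

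Each of the 25 genes with the highest mean TPM was a short noncoding RNA of at most 331 bases, with 17 small nuclear RNAs, 5 RNAs of the 7SL, 7SK and Y class and 2 ribozymes among them. The highest was Gm22513, a copy of the U1 small nuclear RNA that recognises 5′ splice sites, at 89122, 87952 and 95417 TPM (90830.3 ± 4014.6, SD, n = 3). Next came Rn7s1 and Rn7s2, at 84887, 78426 and 65585 TPM each. The genome carries many copies of nearly the same U1 sequence, and 7 of them (Gm25679, Gm22068, Gm22634, Gm23804, Gm22317, Rnu1a1 and Gm26444) had identical expected counts in every library, at 39916, 38518 and 42934 TPM. Reads from such copies could not be told apart by the counting, so the level of any 1 copy is uncertain. The TPM of Rny3, a Y RNA of 102 bases, was also uncertain. It was listed at 0 TPM in replicate 1 although it had 10819 expected counts there, and at 25009 and 10379 TPM in replicates 3 and 4 with 8119 and 2228 expected counts. To show how alike the U1 loci are, the sequences of Rnu1a1 (chr11:87422867-87423030, plus strand) and Gm22513 (chr12:54696782-54696945, plus strand) are given 5′ to 3′ from GENCODE M21 on GRCm38, with the only base that differs between them in capitals.
Rnu1a1: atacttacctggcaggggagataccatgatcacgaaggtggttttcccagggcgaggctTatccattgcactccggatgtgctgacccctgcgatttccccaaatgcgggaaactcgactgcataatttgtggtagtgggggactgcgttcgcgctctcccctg
Gm22513: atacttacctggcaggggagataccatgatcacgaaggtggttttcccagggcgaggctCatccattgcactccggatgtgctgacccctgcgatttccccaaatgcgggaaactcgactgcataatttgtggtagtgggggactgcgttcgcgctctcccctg
Counted from 1 at the 5′ end, Gm22513 differs from Rnu1a1 by T60C alone over 164 bases.

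Protein-coding genes were therefore read as coding TPM, the deposited TPM rescaled so that the 21534 nuclear protein-coding genes sum to 1000000 in each library. One deposited TPM was worth 25, 22.8 and 23.9 coding TPM in replicates 1, 3 and 4, and the smallest step of the deposited values was worth 0.25, 0.228 and 0.239. Most single genes under about 1 coding TPM are thus given by their expected counts. On the deposited scale 4616 genes reached 1 TPM in every library, of which 4149 were nuclear protein-coding. On the coding scale 10997 of 21534 protein-coding genes (51.1%) reached 1, 6133 (28.5%) had at most 3 expected counts in every library, and the median gene stood at 1.92 coding TPM. These 3 values are the background for each list below. For counts at 1 deposited TPM the background is the 4149 of 21534.

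Genes that intestinal epithelium should not use set the floor of these readings. Of 1609 olfactory and vomeronasal receptor genes, 1420 (88.3%) had at most 3 expected counts in every library, and 95% of them lay at or below 0.25, 0.228 and 0.477 coding TPM. Only 3 of them (0.186%) reached 1 coding TPM in every library. The highest, Olfr613, had 30.8, 43.0 and 53.9 coding TPM.

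Leaving out satellite-like predicted genes and ribosomal proteins, the most abundant protein-coding genes were Eef1a1, the translation elongation factor, at 21138, 20195 and 18771 coding TPM, and Gapdh, the glycolytic enzyme, at 12987, 12211 and 15819.7. This ranking was chosen after the values were seen. Of the 100 highest protein-coding genes 58 were classed as cytosolic ribosomal protein genes, a class that left out Fau and the copies Rps12-ps3 and Rpl10-ps3. Together these 100 genes held 50.7% ± 1.21 (SD, n = 3) of coding TPM. Structural genes of a simple epithelium stood among them, with Krt19 at rank 62, Krt18 at rank 67 and Krt8 at rank 93.

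A further 5 abundant genes, chosen after their values were seen, are given as single values. Aldoa, a glycolytic enzyme, stood at 3548, 3469.9 and 3176 coding TPM, Pkm at 2754, 2659 and 2686, and Ldha, which makes lactate, at 1717, 1679 and 1378. Vegfa, which encodes an angiogenic growth factor, stood at 1518, 1415 and 1523, and Plin2, which coats lipid droplets, at 1586, 1522 and 1414. All 5 lay within the first 109 protein-coding genes by mean level.

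The top of the protein-coding ranking also held predicted genes known to resemble satellite repeats. Gm10800 was the highest of all, at 40888, 64809.6 and 87486 coding TPM, and Gm21738 stood at 9938, 14834 and 20446. Both differed over 2-fold between replicates 1 and 4, far more than Krt8 or Spp1. Because these genes are part of the coding scale, leaving out 7 of them raised every other gene, and Krt8 went from 1862 to 2056 coding TPM.

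Pan-epithelial genes ranged from very high keratins to low Epcam. Of 16 such genes, 14 (87.5%) reached 1 coding TPM in every library and 10 reached 1 deposited TPM, with a median of 50.2 coding TPM. Krt8, a keratin of simple epithelia, stood at 2013, 1846 and 1728 coding TPM (1862 ± 143, SD, n = 3). Its partner Krt18 stood at 2849.6, 2603 and 2569, and Krt19 at 2996, 2825 and 2452. All 3 libraries were alike, and each keratin was lowest in replicate 4. Cdh1, the E-cadherin gene, stood at 149 ± 10.7 and Cdh17, an intestinal cadherin, at 103 ± 6.22, with Lgals4, an intestinal galectin, at 156 ± 13.2.

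Epcam, the surface adhesion protein used to sort gut epithelium, stood at only 6.00, 3.87 and 3.58 coding TPM, from 139, 93 and 49 expected counts. Vil1, which encodes the microvillar actin-bundling protein villin, was similar at 4.75, 4.33 and 4.54. In these libraries Epcam ranked 9491 among protein-coding genes by mean level, against 93 for Krt8. Esrp1, an epithelial splicing regulator, stood at a mean of 0.717 coding TPM, from 27, 19 and 15 counts, and with Cldn4 was 1 of the 2 members under the cut-off. The junction genes Cldn7 and Ocln were also low, at means of 7.39 and 5.40. Vim, a filament of mesenchyme, stood above Krt8, at rank 82.

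Keratin and claudin genes were counted as whole families, chosen after the values were seen. Of 50 keratin genes 11 (22.0%) reached 1 coding TPM in every library and 26 had at most 3 counts. Krt7, a keratin of ducts and of fetal and regenerating gut, stood at 345, 332 and 368 coding TPM, and Krt20, a keratin of differentiated intestinal cells, at 68.5, 57.8 and 54.2. The squamous keratins Krt5, Krt1 and Krt6a had at most 1 count in any library, while Krt13 and Krt14, also squamous, reached 1 coding TPM in every library. Of 33 claudin genes 8 reached 1 coding TPM, led by Cldn6, a tight-junction gene of embryonic epithelium, at 87.5, 83.6 and 93.8. Cldn18, known from stomach and lung, stood at 77.5, 76.0 and 65.2, and Cldn2, a pore-forming claudin of crypts, at 35.3, 35.1 and 38.4.

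**Figure D2:**
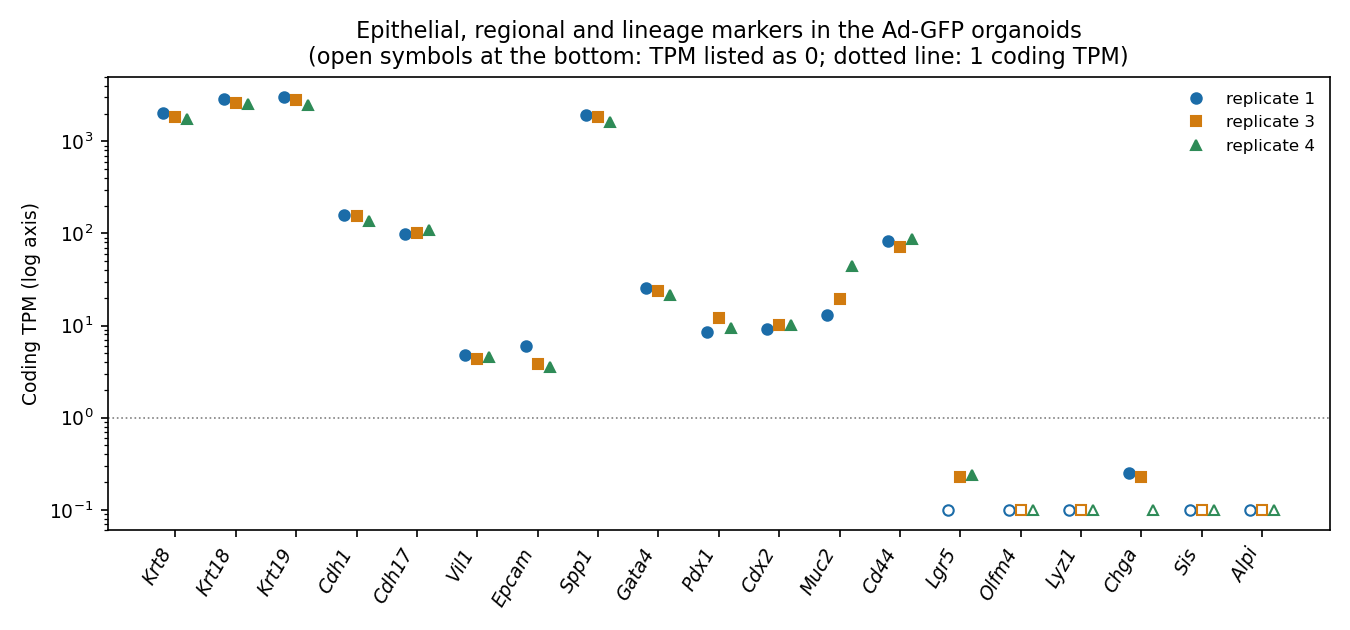
Coding TPM (vertical axis, log scale) of 19 epithelial, regional and lineage marker genes in each of the 3 Ad-GFP libraries, 1 symbol a library, with genes listed at 0 drawn open at the bottom. Keratins and Spp1 lay above 1600, Epcam and Vil1 between 3.58 and 6.00, and Olfm4, Lyz1, Sis and Alpi at 0 in every library.

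Most transcription factors of intestinal epithelium reached 1 coding TPM, but few reached 1 deposited TPM. Of 17 such genes 13 (76.5%) reached the first level in every library and 4 the second, with a median of 9.85 coding TPM. Klf5, a crypt transcription factor, was the highest at 142, 134 and 169 coding TPM. Foxa2 stood at 47.3, 49.6 and 77.6, Elf3 at 46.5, 52.1 and 38.2, and Hnf4a, a driver of enterocyte genes, at 48.3, 41.0 and 31.7. Gata4, which marks the proximal small intestine, stood at 25.5, 23.9 and 21.2.

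Cdx2, which specifies intestine, stood at 9.26, 10.02 and 10.3 coding TPM (9.85 ± 0.526, SD, n = 3) from 243, 265 and 153 counts. Pdx1, which marks duodenum and pancreas, stood at 8.50, 12.1 and 9.31. Both were over the 95th percentile of the silent receptor genes in each library. Cdx1, the paralogue of Cdx2, and Isx, an intestinal homeobox gene, had 0 counts in all 3 libraries, and Hnf4g had 2, 8 and 0. Ptf1a, the pancreatic exocrine factor, also had 0 counts, and of 16 pancreas and liver genes only Afp, a fetal serum protein, reached 1 coding TPM in every library, at 3.75, 2.05 and 1.67.

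Of 12 genes of the proximal small intestine 6 (50%) reached 1 coding TPM in every library, a share close to the 51.1% of all protein-coding genes. None of the 12 reached 1 deposited TPM in every library. Iron transport genes made up 3 of the 6, led by Slc11a2, the importer of ferrous iron, at 27.8, 29.8 and 20.5. Slc40a1, the iron exporter ferroportin, stood at 6.50, 7.97 and 10.7 and Cybrd1, the duodenal ferric reductase, at 1.25, 1.59 and 1.67. The other 3 were the transcription factors Gata4, Onecut2 and Pdx1. The hormones Gip, Cck and Sct, the lactase gene Lct and the fatty acid carrier Fabp1 had at most 8 counts in any library.

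Few genes of other gut regions reached 1 coding TPM, but Muc1 and the stomach gene Ctse stood above Slc11a2, the highest proximal gene. Of 10 ileal genes only Cubn, the receptor for the vitamin B12 complex, reached 1 coding TPM in every library, at 2.50, 3.19 and 3.10, while the ileal bile acid genes Fabp6 and Slc51b had 0 counts. Of 12 colon and hindgut genes only Muc1, a transmembrane mucin made in many epithelia, passed, at 152, 129 and 170.4. The colonic carbonic anhydrases Car1 and Car4 had 0 counts.

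Of 16 stomach genes 4 (25%) passed. Ctse, a gastric cathepsin, stood at 53.3, 54.2 and 59.2 coding TPM, Tff1 at 6.75, 8.88 and 8.12, Tff2 at 1.5, 1.82 and 2.15, and Sox2, a foregut transcription factor, at 6.25, 6.38 and 2.63. Sox2 was lowest in replicate 4, where it had 35 counts against 149 and 154. Of 12 squamous genes 4 passed, the highest being Krt13 at 6.50, 3.42 and 8.12 and Krt14 at 5.75, 5.92 and 5.25, while Trp63, the master regulator of squamous epithelium, had at most 7 counts.

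Hox genes, which record position along the trunk, were close to silent. None of 39 reached 1 coding TPM in every library, 26 (66.7%) had at most 3 counts in every library, and their levels summed to 3.25, 4.10 and 5.73 coding TPM. The highest mean was that of Hoxa13, a hindgut gene, with 10, 4 and 6 counts. The next were Hoxd11, at 6.84, 15.92 and 24.5 expected counts, and Hoxc9.

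Regenerative genes stood out by level rather than by presence alone. Of 23 fetal-like and regenerative genes, 21 (91.3%) reached 1 coding TPM and 19 reached 1 deposited TPM in every library, and 15 (65.2%) had a mean of at least 100 coding TPM, against 1092 of all 21534 protein-coding genes (5.07%). Their summed level was 12683, 12165 and 11692 coding TPM, to which S100a6 gave 35.7%. In TMM-scaled CPM (counts per 1000000), which is not divided by length, the list summed to 4495 and the enterocyte list to 514, against 290.3 coding TPM for the latter. The list was drawn up with earlier results of these data known, so its counts are a description. S100a6, a calcium-binding protein of proliferating and migrating cells, stood at 4701, 4400.4 and 3929.8.

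Spp1, which encodes the secreted glycoprotein osteopontin, stood at 1925, 1846 and 1617 coding TPM (1796 ± 160.0, SD, n = 3). Clu, clusterin, the marker of injury-induced revival stem cells, stood at 1903, 1844 and 2282. Spp1 was lowest and Clu highest in replicate 4. Anxa3, an annexin, stood at 976, 975 and 849, Msln, mesothelin, at 618, 589.7 and 461, and Tnfrsf12a, the TWEAK receptor, at 389, 342 and 278.

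Inflammatory and growth-factor members were present too. Ptgs2, cyclooxygenase-2, stood at 118, 118 and 114 coding TPM, and Il33, an alarmin, at 40.5, 41.4 and 40.1. The EGF-family ligands Areg and Ereg stood at 125, 128 and 119.8 and at 7.75, 9.11 and 6.92. Ly6a, which encodes Sca-1 and marks fetal-like repair of the gut, stood at 45.8, 49.2 and 53.2.

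Ly6d was among the members that did not pass, with 0, 0 and 1 counts, so the set was not uniform. All 21 members that passed differed by less than 1.5-fold between the highest and lowest library, with a median ratio of 1.16, beside 8317 of the 10997 protein-coding genes that passed (75.6%) and their median ratio of 1.27. Low genes carry more counting error, and over the 6926 protein-coding genes with at least 10 CPM in their highest library the median ratio, in CPM, was also 1.16.

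YAP and TAZ components and targets were likewise present. Of 17 genes 16 (94.1%) reached 1 coding TPM in every library, with a median of 56.1. Ctgf, a matricellular target gene, stood at 349.9, 352 and 338 coding TPM, Cyr61 at 263, 263 and 305, and Ankrd1 at 234, 219 and 225. These 3 genes belong to the regenerative list as well, so both lists share them. F3, tissue factor, stood at 199.6 ± 2.87 and Axl, a receptor kinase, at 139 ± 10.1. The coactivators Wwtr1, which encodes TAZ, and Yap1 stood at 110.2 ± 1.38 and 35.6 ± 6.1.

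Of 20 crypt base columnar stem cell genes 12 (60%) reached 1 coding TPM in every library, beside 51.1% of all protein-coding genes, with a median of 5.01. On the deposited scale 4 of the 20 reached 1 TPM in every library, beside 4149 of all 21534 protein-coding genes. Cd44, a Wnt-responsive adhesion receptor, stood at 82.0, 71.7 and 86.4 coding TPM, Lrig1, a brake on EGF receptors, at 44.8, 36.4 and 38.2, and Slc12a2, an ion cotransporter of crypts, at 38.0, 35.1 and 36.5. None of the 20 reached 100 coding TPM.

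Lgr5, the R-spondin receptor that defines these stem cells, had 3.03, 8.20 and 6.03 expected counts, or 0, 0.228 and 0.239 coding TPM, which lies within the range of the silent receptor genes. Olfm4, a second defining gene, had 0 counts in all 3 libraries, which allows at most 0.0754, 0.0779 and 0.138 CPM if 3 counts are taken as the upper limit of a count of 0. Ascl2, the Wnt-driven stem cell factor, had 4, 0 and 11 counts, and Smoc2 had 12, 2 and 0. None of these 4 reached 1 coding TPM in any library.

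Reserve stem cell genes were also measured. Of 5 genes 4 passed, with Lrig1 highest, Bmi1, a Polycomb gene, at 26.3, 24.8 and 19.1 coding TPM, Mex3a at 15.8, 15.7 and 17.4, and Tert, the telomerase subunit, at 4.75, 3.87 and 5.01. Hopx had 2, 0 and 3 counts.

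Of 20 Wnt feedback and target genes 9 (45%) reached 1 coding TPM in every library, and the median was 0.480. Myc stood at 220.1, 207 and 203 coding TPM and Ccnd1, cyclin D1, at 158, 149 and 132. Tcf7l2, the Wnt effector, stood at 7.75, 6.15 and 6.45. Axin2, the direct feedback target, had 22, 3 and 13 counts, Notum, a secreted Wnt deacylase, 7, 4 and 0, and Sp5 and Wif1 had 0 in every library. The ubiquitin ligases Rnf43 and Znrf3, which remove Wnt receptors, stood at 5.75, 5.69 and 5.73 and at 4.25, 3.87 and 4.77.

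Receptors for the factors in the medium were present. Of 27 genes 21 (77.8%) reached 1 coding TPM and 4 reached 1 deposited TPM in every library, with a median of 12.1 coding TPM. The Wnt coreceptors Lrp5 and Lrp6 stood at 61.9 ± 1.06 and 32.2 ± 2.56 coding TPM. The TGF-β receptors Tgfbr2 and Tgfbr1 stood at 32.2 ± 0.530 and 21.8 ± 2.62, and Rock2, the kinase that Y27632 blocks, at 47.4 ± 1.87. Among R-spondin receptors Lgr4 stood at 13.0, 10.9 and 17.2 and Lgr6 at 12.8, 10.7 and 12.9, far over Lgr5.

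**Figure D3:**
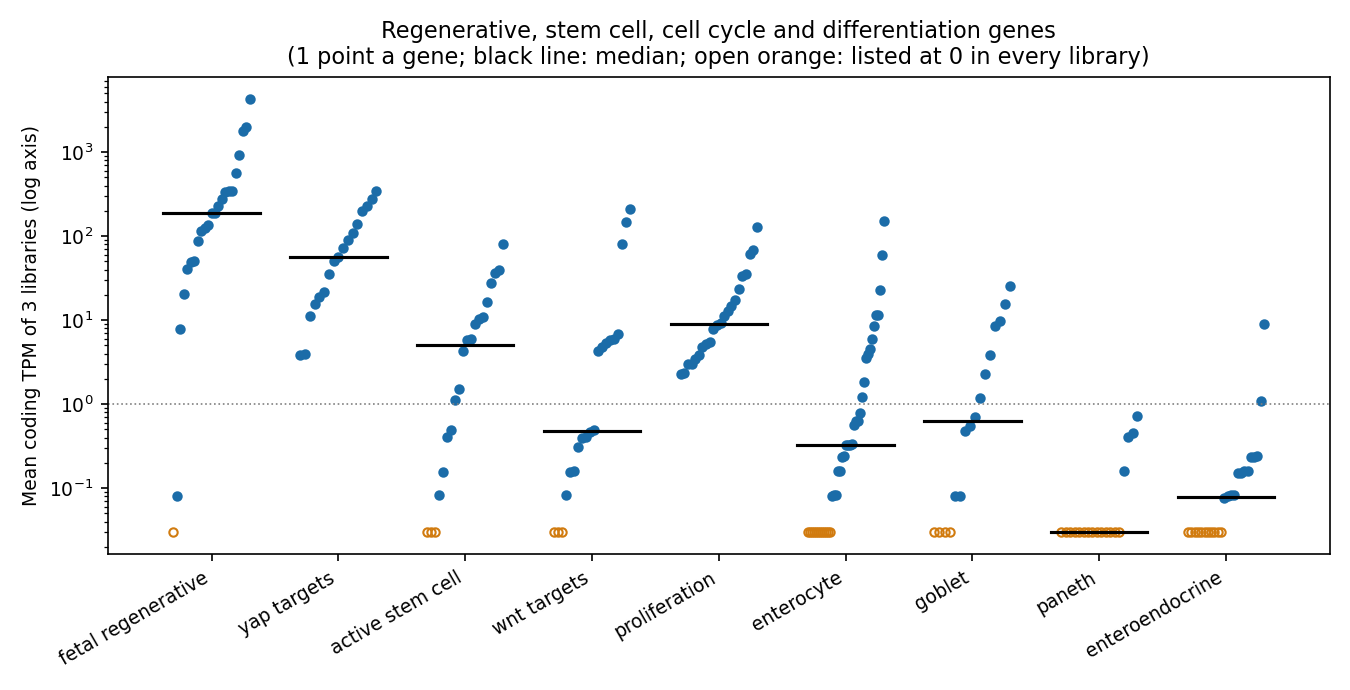
Mean coding TPM over the 3 Ad-GFP libraries (vertical axis, log scale) of each gene in 9 lists, 1 point a gene, with the list median as a black line and genes listed at 0 in every library as open orange points. The medians were 187 for the regenerative list, 5.01 for crypt stem cell genes, 9.03 for cell cycle genes, 0.322 for enterocyte genes and 0 for Paneth genes.

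Cell cycle genes were present at low to moderate levels. Of 22 genes 21 (95.5%) reached 1 coding TPM in every library, and the median was 9.03. On the deposited scale 5 of the 22 reached 1 TPM, beside 4149 of all 21534 protein-coding genes. Replication genes led the list, with Pcna, the polymerase clamp, at 120.1, 123 and 137 coding TPM, Mcm7 at 71.0, 66.5 and 68.0 and Tyms, which makes thymidylate, at 50.5, 67.8 and 65.9. Mitotic genes lay lower, with Top2a at 18.5, 17.5 and 16.7, Ccnb1 at a mean of 4.79 and Aurkb at 2.32. Mki67, the proliferation antigen, had a mean of 2.29. The summed level of the list was 464, 465 and 466 coding TPM.

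Of 7 inhibitors of cyclin-dependent kinases all 7 reached 1 coding TPM and 4 reached 1 deposited TPM in every library, with a median of 49.7 coding TPM. Cdkn2a, which encodes p16 and p19ARF, stood at 335, 314 and 202 coding TPM and its neighbour Cdkn2b, which encodes p15, at 172, 173 and 163. Cdkn2a was lowest in replicate 4, while Cdkn2b was similar in all 3. Cdkn1b stood at 59.3, 69.2 and 52.0 and Cdkn1a, the p53 target p21, at 48.3, 47.6 and 53.2. Each of these 4 was higher than Top2a in every library, but Pcna was higher than both Cdkn1b and Cdkn1a in every library.

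Enterocyte genes were mostly low. Of 39 genes 11 (28.2%) reached 1 coding TPM in every library, 2 reached 1 deposited TPM, 10 had at most 3 counts, and the median was 0.322. Apob, the apolipoprotein of chylomicrons, alone gave 51.6% of their summed level, at 154, 151 and 144 coding TPM. Krt20 came next, then Dgat1, a triglyceride-making enzyme, at 20.8, 24.6 and 23.6, Cdhr2, a microvillar cadherin, at 12.0, 10.5 and 12.2, and Mogat2 at 12.3, 10.7 and 11.2.

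Several defining digestive and absorptive genes did not pass, although Rbp2, a retinol carrier, did at 9.51, 3.87 and 4.54 coding TPM. Sis, sucrase-isomaltase, had 0 counts in every library, Alpi, intestinal alkaline phosphatase, 0, 1 and 0, and Fabp1 1, 0 and 0. The glucose transporter Slc5a1 had 0, 4 and 0 counts and the peptide transporter Slc15a1 none. Anpep, an aminopeptidase of the brush border, had 81, 50 and 11 counts.

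On the deposited scale, the median log2(TPM + 1) of the regenerative list was 2.97, 3.19 and 3.15 and that of the enterocyte list 0.0286, 0.0144 and 0.0286. The difference was 2.94, 3.18 and 3.12 in replicates 1, 3 and 4 (3.08 ± 0.123, SD, n = 3), and it had the same sign in every library. No mature tissue was analysed here, and both lists were drawn up with earlier results of these data known. The difference and its sign are thus a description of these libraries and not a change.

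The secretory fate factors Atoh1, Spdef and Neurog3 were at or near 0. Atoh1, the switch to secretory fate, had 0 counts in all 3 libraries, Spdef 1, 1 and 1 and Neurog3 2, 2 and 4. In contrast Notch pathway genes on the same list were present, with Jag1, a ligand, at 83.5, 87.0 and 90.2 coding TPM, Notch2 at 38.3, 36.7 and 38.7, Hes6 at 35.3, 41.4 and 29.8 and Hes1, the target that represses Atoh1, at 32.5, 28.5 and 31.7. Of those 12 genes 6 (50%) passed. Notch1 was the least even, at 8.50, 5.24 and 21.5 coding TPM, but at 16.8, 14.8 and 17.1 CPM it was close in the 3 libraries, with effective lengths of 6276, 8949.8 and 2441 bases.

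Of 18 Paneth cell genes none reached 1 coding TPM in every library and 14 had 0 counts throughout. Lyz1, the Paneth lysozyme, was among the 14. Mmp7, which processes defensins, was the highest, with 17, 5 and 1 counts, and the defensin Defa26 had 0, 4 and 0.

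Goblet cell genes were few but included Muc2. Of 16 genes 6 (37.5%) passed, with a median of 0.629, and none reached 1 deposited TPM in every library. Muc2, the main secreted mucin, stood at 13.0, 19.4 and 44.9 coding TPM (25.7 ± 16.9, SD, n = 3), from 170, 196 and 150 expected counts. It was over 3-fold higher in replicate 4 than in replicate 1. In CPM it stood at 4.31, 5.04 and 6.96, a narrower range, since the effective length by which TPM divides was 1065, 818 and 471 bases. The level of Muc2 in coding TPM, and not only its spread, rests on these lengths. Spink4 stood at 6.75, 12.8 and 9.79 and Sytl2 at 14.8, 14.1 and 17.2, while Tff3 and Retnlb had 0 counts.

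Of 24 enteroendocrine genes only Pax6 reached 1 coding TPM in every library, at 5.25, 10.9 and 10.7, and 15 (62.5%) had at most 3 counts. Chga, chromogranin A, had 4, 3 and 0 counts, or 0.25, 0.228 and 0 coding TPM. Ghrl, the ghrelin gene, had 5, 14 and 1. Both were in the range of the silent receptor genes in at least 1 library.

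Of 17 tuft cell genes 3 (17.6%) passed. Avil, an actin-severing villin relative, stood at 68.3, 71.5 and 81.2 coding TPM, Ptgs1, cyclooxygenase-1, at 12.8, 18.2 and 16.5 and Gng13 at 5.75, 2.28 and 8.59. The defining genes did not pass, with Dclk1 at 0.5, 0.683 and 1.43 coding TPM from 49, 40 and 36 counts, Pou2f3 at 4, 5 and 0 counts and Trpm5 at 4, 5.04 and 21. Of 8 M cell genes 4 passed, led by Tnfaip2 at 75.5, 79.7 and 72.6 and the chemokine Ccl20 at 19.3, 22.1 and 19.8, while Spib and Gp2 had at most 1 count.

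**Figure D4:**
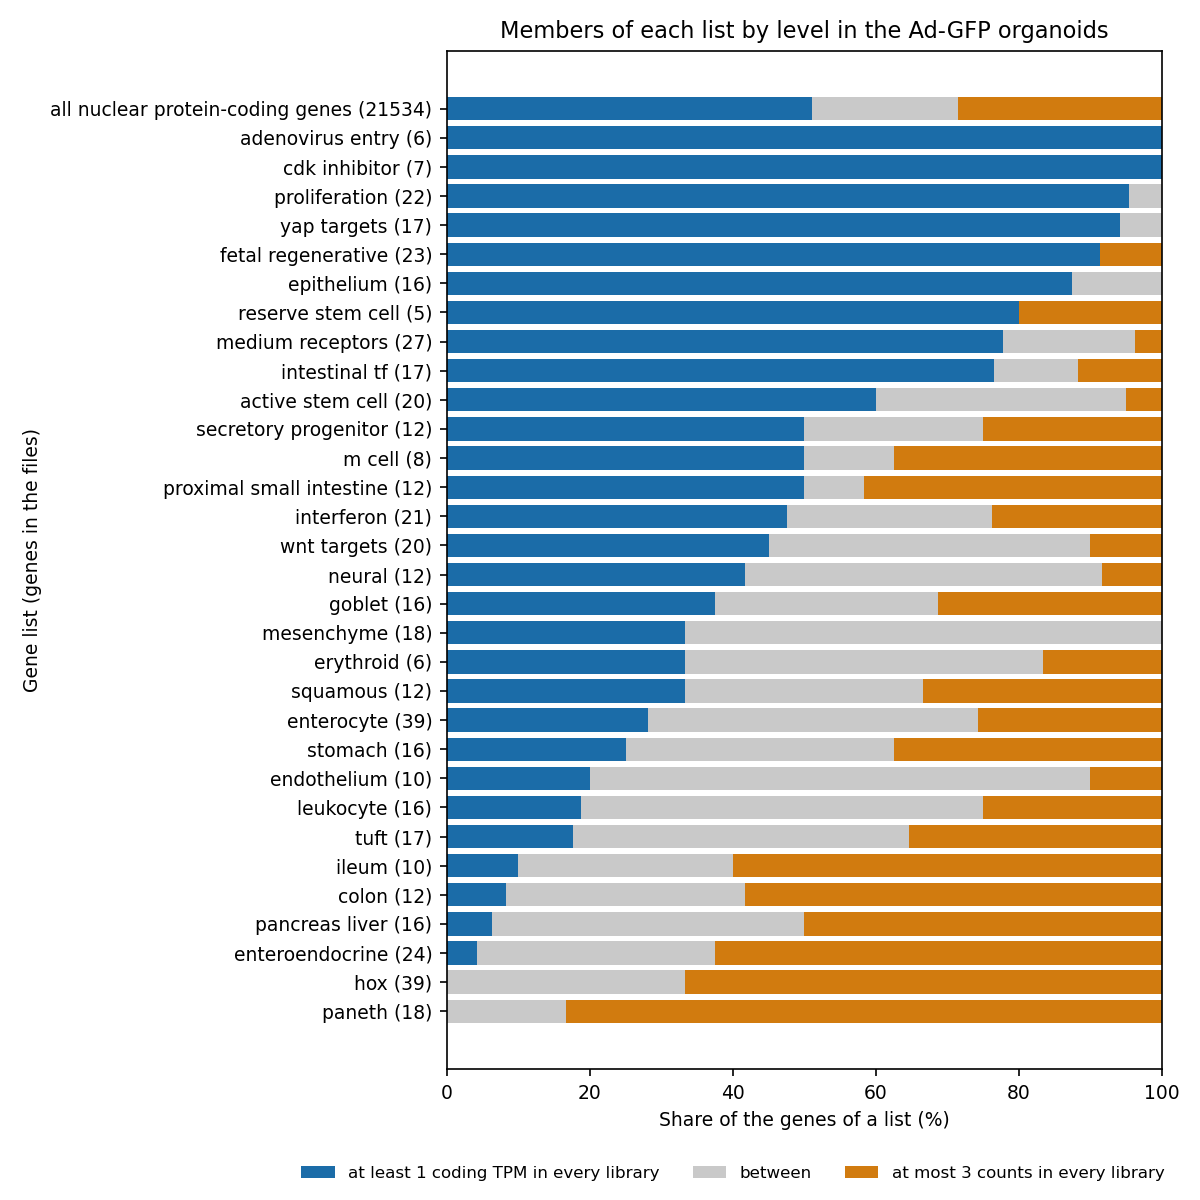
Share of the genes of each list (horizontal axis, %) that had at least 1 coding TPM in every Ad-GFP library (blue), at most 3 expected counts in every library (orange) or a level between (grey), 1 bar a list with its number of genes in brackets. The top bar gives all 21534 nuclear protein-coding genes, of which 51.1% were blue, and the bars ran from 100% for CDK inhibitors and adenovirus entry genes to 0% for Paneth and Hox genes.

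Markers of the other cell types that crypt preparations can carry were mostly low, but Vim, Ano1 and Cd68 were not. Vim, the intermediate filament vimentin, stood at 2273, 2152 and 1989.8 coding TPM and gave 98.7% of the summed level of 18 mesenchyme genes. The summed level of that list was 2307, 2173 and 2015. The defining fibroblast genes did not follow Vim, with Col1a1 at 4.50, 2.28 and 1.19, Col3a1 at 7.25, 1.82 and 2.86, Pdgfra at 2.0, 1.59 and 2.15 and Dcn at 36, 14 and 11 counts. Of the 18 genes 6 (33.3%) passed and none had at most 3 counts in every library.

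Of 10 endothelial genes 2 passed, Vwf at 6.25, 7.29 and 3.34 coding TPM and Esam at 2.0, 1.37 and 6.45, and the list summed to 10.8, 11.4 and 11.7. Pecam1 and Cdh5 had at most 12 counts in any library. Of 16 leukocyte genes 3 passed, led by Cd68 at 24.5, 24.4 and 37.2 and Lyz2 at 9.51, 4.10 and 5.01, with Ms4a1 as the last of them. The list summed to 39.0, 35.1 and 48.7, while Ptprc, the pan-leukocyte CD45 gene, had 18, 24 and 23 counts and Cd3g had 0. The share of these levels that came from other cells was not tested.

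Of 12 neural genes 5 passed. Ano1, a chloride channel of Cajal cells and many epithelia, stood at 69.0, 67.6 and 71.1 and gave 82.3% of the sum, while the defining neural gene Elavl4 had 4, 0 and 0 counts and Kit, the marker of Cajal cells, 2, 4 and 0. Of 6 red cell genes 2 passed, Hbb-bs at 4.25, 5.69 and 3.58 and Alas2 at 3.25, 4.55 and 3.82.

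Genes that bear on the transduction itself were present. All 6 adenovirus entry genes passed, and Cxadr, the receptor of the adenovirus fibre, stood at 126, 120.2 and 101 coding TPM. The integrin subunits Itgb1 and Itgav, which help the virus into the cell, stood at 252, 233 and 213 and at 217, 233 and 186. All 3 genes were lowest in replicate 4.

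Of 21 interferon response genes 10 (47.6%) passed, beside 51.1% of all protein-coding genes, and the median was 0.8 coding TPM. Ifi27 stood at 58.5, 67.4 and 74.5, Bst2, which tethers virions, at 69.0, 57.8 and 55.1 and Irf1 at 22.5, 24.8 and 22.0. The strongly inducible genes were low, with Isg15 at 30, 23 and 6 counts, Ifit1 at 26, 16 and 21 and Rsad2 at 3, 2 and 3. The interferon genes Ifnb1, Ifnl2 and Ifnl3 stood at 0 coding TPM in every library.

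The 3 libraries were close to one another across genes. Pearson's correlation of log2(coding TPM + 1) over 21534 protein-coding genes was 0.993 between replicates 1 and 3, 0.986 between 1 and 4 and 0.987 between 3 and 4, where genes are not independent replicates. The common coefficient of variation between libraries, estimated from counts over 13841 genes, was 0.152. It fell to 0.105 without replicate 4 and rose to 0.183 without replicate 3, so replicate 4 stood furthest from the others. Every pair of libraries differed by more than counting noise, with chi-square values of 23.7 to 73.2 per degree of freedom, so no library was a copy of another. That comparison covers counting noise only and cannot show that the libraries came from separate animals. Each library was counted as 1 sample.

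Among 6926 protein-coding genes with at least 10 CPM in their highest library, the ratio of the highest to the lowest library had a median of 1.16, and 56 genes (0.809%) differed 2-fold or more. Replicate 4 was the lowest library for 24 of these 56 and the highest for 31. The 10 with the largest ratio were Rps12, Eno1b, Gm21887, Galnt2, Mpzl1, Hist1h2ap, Lars2, Rab43, Cldnd1 and Gm10715. None of them belongs to a marker list.

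The first 2 of the 10 have near-identical copies. Rps12, a ribosomal protein gene, had 0, 6163 and 6819 expected counts, which is at least 4157-fold between replicates 4 and 1 with 3 counts taken for the 0, but with its copy Rps12-ps3 it came to 38445, 41299 and 20857 counts, a ratio of 1.10 in CPM. Eno1b had 0, 566 and 1667 counts, and with Eno1, the glycolytic enolase, a ratio of 1.26. Summed over the copies, neither gene differed as it did alone.

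Galnt2, which starts O-glycans, had 12.8, 12.1 and 0.718 CPM, from expected counts that were not whole, as RSEM gives where reads fit more than 1 locus. Mpzl1 and Cldnd1 had whole counts. Mpzl1, a membrane protein, stood at 17.9, 17.3 and 4.08 CPM and Cldnd1, a claudin-like protein, at 17.1, 18.6 and 6.49. All 3 genes were low in replicate 4. Lars2, the mitochondrial leucyl-tRNA synthetase, had 115, 266 and 87.8 CPM and was highest in replicate 3. Mitochondrial ribosomal RNA moved with replicate 4 as well, at 3.36%, 3.74% and 1.21% of counts, while mt-Co1, a respiratory chain subunit, differed by 1.20-fold in CPM. What sets replicate 4 apart was not tested.

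**Figure D5:**
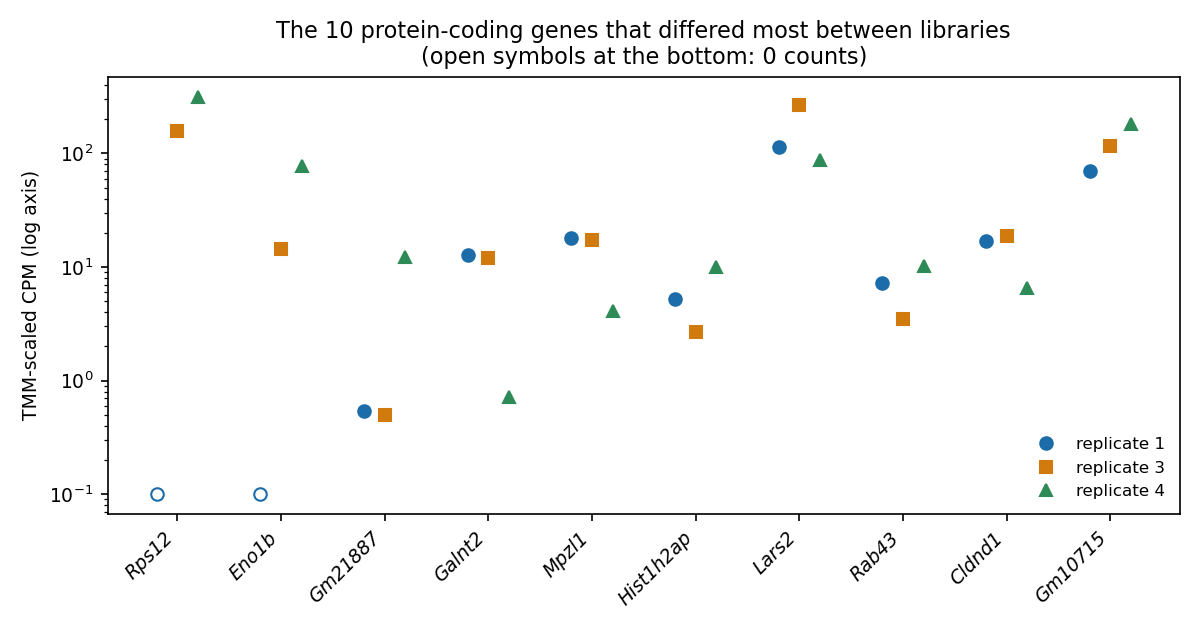
TMM-scaled CPM (vertical axis, log scale) of the 10 protein-coding genes with the largest ratio between the 3 Ad-GFP libraries, 1 symbol a library, with 0 counts drawn open at the bottom. Rps12 and Eno1b had 0 counts in replicate 1, and Galnt2, Mpzl1 and Cldnd1 were lowest in replicate 4.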

How the data were processed

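RNA-seq of total RNA was deposited as 1 gene table per library. The authors made it with RSEM. The build, the annotation, the aligner and the strand setting are not given in the sources used here, and neither is the release of RSEM. The deposited expected counts are RSEM estimates, which split reads among copies and need not be whole. The deposited TPM values are divided by effective length and rounded to 2 decimals. Of 46517 gene IDs, 46005 were matched to GENCODE M21 for biotype and position. Coding TPM is the deposited TPM rescaled to the 21534 nuclear protein-coding genes. Detection required a deposited TPM of at least 1 in all 3 libraries, and the floor was 3 expected counts. List members were also counted at 1 coding TPM in all 3 libraries. The spread between libraries used TMM factors and the common dispersion of edgeR 4.0.16 on rounded expected counts, with median-ratio factors from DESeq2 1.42.0 as an alternative. On simulated data true coefficients of 0.1, 0.2 and 0.3 gave 0.09997, 0.1984 and 0.2956. Summaries used Python 3.11.15 with pandas 2.3.3, scipy 1.17.1 and matplotlib 3.10.9. No groups were tested against each other. The 31 gene lists and the named genes (the 25 highest by TPM, the first 5 and the defining members of each list, and the 10 most variable) were chosen with earlier results of these data known. Members listed but without a row (Prac1, Ccn1, Ccn2, Defa29, Defa30 and Defa34) were not counted, and Ccn1 and Ccn2 appear as Cyr61 and Ctgf. The tables of the other 6 libraries were not used. Some list members and 1 sequence are not reported here.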

Additional observations from a re-analysis of the deposited data

How the results depend on the processing

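The deposited TPM is a share of a library filled by small RNAs, so counts of detected genes moved with the scale and the cut-off. The 4616 genes detected became 7005 at 0.5 TPM, 1090 at 5 TPM, 13455 with at least 10 expected counts, 13982 above the 95th percentile of the silent receptor genes, 10997 on the protein-coding scale and 11011 when that scale was recomputed from counts, and lay between 4663 and 4921 without 1 replicate. The regenerative list stayed between 13 and 21 of 23 under every setting run. The crypt stem cell list went from 4 to 0 at 5 TPM and to 12 under the count, silent-gene and both protein-coding settings. The cell cycle list went from 5 to 8 at 0.5 TPM, 0 at 5 TPM, 21 by counts and by the protein-coding scale, and 22 by the silent genes and the recomputed scale. The enterocyte list went from 2 to 1 at 5 TPM, 13 by counts and by the silent genes, and 11 on both protein-coding scales. The regenerative-minus-enterocyte difference rose from 3.08 to 6.05 with a pseudocount of 0.1 and to 7.03 on the protein-coding scale, with its sign kept, and was 3.03 to 3.15 without 1 replicate. Summed levels moved by more than their SD in 31 of 33 lists when TMM-scaled CPM replaced coding TPM, with the regenerative list at 4495 and the enterocyte list at 514. The first 100 genes held 95.5% of TPM but 50.7% on the protein-coding scale. The coefficient of variation was 0.240 with no filter on low counts, 0.152 with median-ratio factors and 0.153 with total counts. The recomputed scales, the scale without 7 satellite-like genes and the protein-coding scale for the regenerative-minus-enterocyte difference were chosen after seeing the data. No paired analysis was possible because only 1 group was described. Replicate 4 has the fewest counts, and levels under about 1 coding TPM can rest on a few reads. Not all do, since Esrp1, at a mean of 0.717 coding TPM, had 27, 19 and 15 counts.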

Other observations

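Sex-linked genes were read as a check of the cultures, and these genes were chosen after the values were seen. Xist, the RNA that coats the inactive X chromosome, had 1180, 1204 and 709 expected counts in replicates 1, 3 and 4. The Y-linked genes Ddx3y and Eif2s3y had 0, 3 and 0 and 1, 1 and 0 counts. Uty, also Y-linked, went against them, with 1267, 2317 and 1500 expected counts, or 46.5, 83.6 and 94.8 coding TPM. Across the 3 libraries Uty was in the same order as the satellite-like gene Gm10800, at 40888, 64809.6 and 87486 coding TPM. The receptor gene Olfr613 was in that order too. The source of the Uty reads was not tested.

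Single abundant genes outside the lists were picked after their values were seen. Hmga1, a chromatin protein of embryonic cells, stood at 1808, 1777 and 1660.2 coding TPM, and Plac8 at 1988, 1811 and 1553. Lgals1, galectin-1, stood at 1128, 1008 and 999. Each was within the first 130 protein-coding genes by mean level.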
